A study of Homo sapiens with 8 samples.

Results

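The genes examined were the 6 human actin genes, ACTB, ACTG1, ACTA1, ACTA2, ACTC1 and ACTG2, and 4 POTE genes of chromosome 2 whose products end in an actin-like part, POTEE, POTEF, POTEI and POTEJ. These 10 of 20037 protein-coding genes were chosen by name, with earlier results of these data known. Every peak that overlapped the RefSeq span of a gene, widened by 1 kb at either end, was assigned to it. The study profiled HCT-116, an established line from a human colorectal carcinoma, by CUT&RUN, which sequences the DNA that an antibody-tethered nuclease cuts free from chromatin. There were 8 libraries. In one arm the titles name Flag-actin, and in the other BRG1, an ATPase of SWI/SNF chromatin remodellers, with no tag named. Each antibody had 1 library of SETD3 control cells and 2 libraries of SETD3 knockout cells, KO1 and KO2, and each arm had 1 library made with IgG, a non-specific antibody, on control cells. The IgG library of the Flag arm is titled Empty. Whether its cells carried the tagged actin is not stated, so construct and antibody cannot be told apart in comparisons with it. Left unstated in the labels are which actin was tagged and how it was expressed, which cells carried it, and whether the KO numbers stand for clones or for cultures. With 1 control and 2 KO libraries per antibody no test between conditions was made, so every difference below is a description, and a mean ± SD over KO1 and KO2 measures only the spread between those libraries.

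Actin is made from a family of closely similar genes. ACTB and ACTG1 encode the cytoplasmic beta and gamma actins found in nearly all cells, ACTA1 the actin of skeletal muscle, ACTC1 that of the heart, and ACTA2 and ACTG2 the actins of smooth muscle. Actin monomers also enter the nucleus, where they are a subunit of SWI/SNF complexes together with the actin-related protein ACTL6A, and SETD3 is the enzyme that methylates a histidine of actin. The POTE genes are a primate family, and some of its members carry a retroposed actin copy at their 3′ end. Retroposed copies and processed pseudogenes derive from spliced messages and lack introns.

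Transcription of several actin genes is driven by serum response factor, which binds a 10-base element known as the CArG box. RefSeq promoter windows (assembly GRCh38.p14, 250 bases before to 50 after a start) were found for 9 of the 10 genes, in 13 windows, but not for ACTB. No list held a peak in any of the 13 windows, but the share of all windows with a peak was not computed. The start of ACTB, where the BRG1 control list had a peak, is not among the 13. Only exact CArG boxes, with CC and GG around A or T bases alone, were searched, on both strands. Such a box was present in 4 of the windows, those of ACTG1, ACTA1, ACTC1 and ACTG2, against 1.29% of all 35097 windows in the table. Forms with a mismatch were not counted, so the other windows, such as those of ACTA2, are not shown to lack a CArG element. A match is a description and no evidence of binding. The ACTG1 promoter is printed whole because BRG1 peaks lay on both sides of the gene but not in this window, chr17:81512750-81513049, minus strand. The others are stretches of 40 bases around the first box, on chr1:229434167-229434206 (minus strand), chr15:34795634-34795673 (minus strand) and chr2:73892883-73892922 (plus strand). All are written 5′ to 3′ with the CArG box in capitals.
ACTG1: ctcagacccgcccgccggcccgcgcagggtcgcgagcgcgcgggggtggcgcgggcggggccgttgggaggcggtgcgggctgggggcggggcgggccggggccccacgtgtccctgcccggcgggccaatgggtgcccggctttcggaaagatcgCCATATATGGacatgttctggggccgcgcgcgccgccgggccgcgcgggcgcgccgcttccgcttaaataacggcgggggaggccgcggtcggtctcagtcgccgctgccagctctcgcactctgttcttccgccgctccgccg
ACTA1: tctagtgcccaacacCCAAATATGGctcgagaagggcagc
ACTC1: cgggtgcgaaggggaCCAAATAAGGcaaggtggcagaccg
ACTG2: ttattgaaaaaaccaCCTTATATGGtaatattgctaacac
The box began 94 bases before the start in ACTG1, 97 in ACTA1, 109 in ACTC1 and 110 in ACTG2, where a second box began 73 bases before it.

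The lists held between 20303 and 53270 peaks on chromosomes 1 to 22, X and Y. The BRG1 lists held 53270 (control), 23784 (KO1) and 32038 (KO2), and the Flag-actin lists 38902, 27249 and 35892. Counts of genes with a peak below are not adjusted for the length of the list. For each peak the authors deposited a total signal, summed over its bases, and a maximum signal. The sources used here do not give the scaling of signal between libraries, so signal is given as a share of the summed total signal of its own list. In each list the maxima came in whole steps of one size (100% of those below 200 steps, within 0.05 steps), and heights are therefore also given in steps. The IgG lists carry a stricter threshold in their names (0.005) than the antibody lists (0.01), so a share in an IgG list has a different kind of denominator. As a check of the tissue, BRG1 control peaks lay at 5 of 8 colorectal epithelial marker genes and at 3 of 8 muscle marker genes, against 59.9% of all genes. Flag-actin control peaks lay at 4 and 5 of them, against 48.4%. Peaks are not expression, so these counts do not test the labelled cell type.

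Flag-actin peaks were present at 7 of the 10 genes in the control and at 6 in each KO list. These were ACTB, ACTG1, ACTA1, POTEE, POTEF and POTEI in all 3 lists, and ACTG2 in the control alone. By the same rule the control list had a peak at 48.4% of all protein-coding genes, the KO1 list at 37.2% and the KO2 list at 45.4%. Among the 12527 genes with a span between 2829 and 56264 bp, the range of the 10 genes, the shares were 42.3%, 26.5% and 35.9%. No test of the members against these shares was made. The Flag arm IgG list had peaks at 3 of the 10 (ACTB, POTEE and POTEF), against 30% of all genes. The BRG1 lists had peaks at 5 (control), 3 (KO1) and 6 (KO2) of the 10, against 59.9%, 33.6% and 42.8% of all genes. The BRG1 arm IgG list had peaks at the same 3 genes as the other IgG list, against 32% of all genes. ACTB, POTEE and POTEF were thus the ones of the 10 with a peak in each of the 8 lists, IgG included. At POTEE no single place had a peak in all 8. The share of all genes with a peak in each list was not computed.

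**Figure D1:**
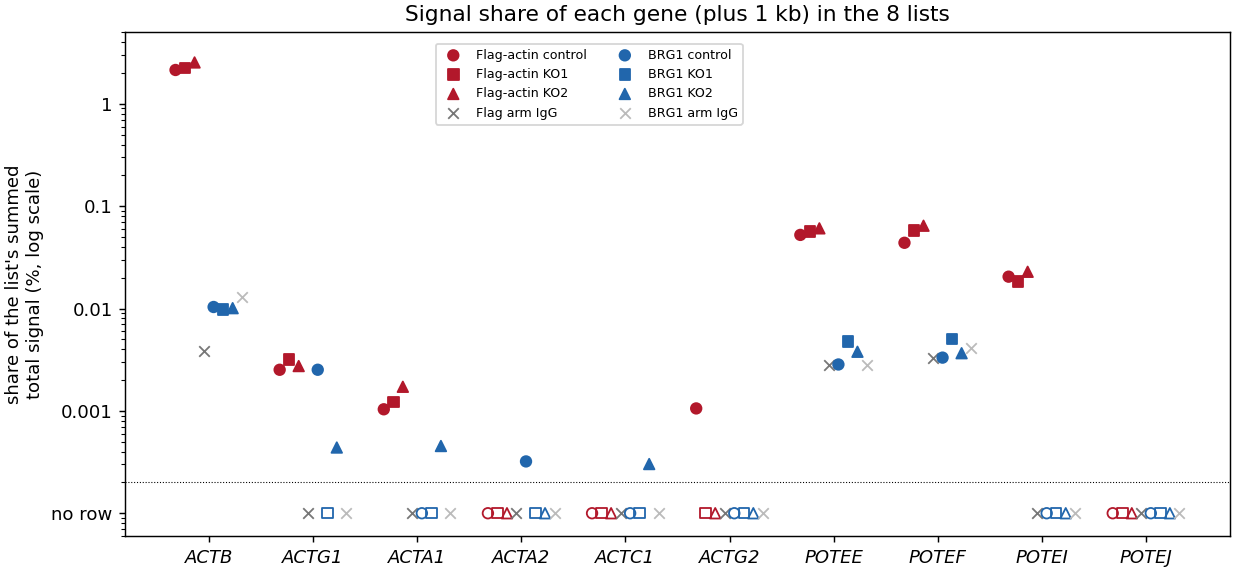
Share of the summed total signal of each list (percent, log scale) at the 10 genes plus 1 kb. Red, Flag-actin; blue, BRG1; grey crosses, IgG (dark, Flag arm; light, BRG1 arm). Circles are control, squares KO1 and triangles KO2. Marks below the dotted line have no peak. ACTB stands above 2% in the 3 Flag-actin lists and near 0.01% in the BRG1 lists.

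ACTB, on chromosome 7 from 5527148 to 5530601 (hg38), held more signal than any other protein-coding gene in each Flag-actin list. Its share of the summed signal was 2.14% (control), 2.23% (KO1) and 2.53% (KO2), and 0.00386% in the Flag arm IgG list. The KO mean was 2.38% ± 0.212 (SD, n = 2), or 0.244 percentage points above the single control library. That difference is about the size of the spread between KO1 and KO2. With maxima summed in place of total signal it had the opposite sign, at −0.0514 points. With peaks wider than 100 bp alone, of which the control list held 27383, KO1 4635 and KO2 15308, the share was 5.23% in the control and 19.2% in the KO mean. Among the 10 genes together, ACTB carried 94.6%, 94.2% and 94.3% of the Flag-actin signal in control, KO1 and KO2.

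In the BRG1 arm, ACTB held 0.0103% (control), 0.00980% (KO1) and 0.0101% (KO2) of the signal. The BRG1 arm IgG list held 0.0130%. Since the lists differ in threshold and their scaling is unknown, these shares do not measure BRG1 signal relative to IgG. By share of signal, ACTB ranked 1378 (control), 1514 (KO1) and 1452 (KO2) of 20037 genes in the BRG1 lists, and 1216 and 2343 in the IgG lists of the BRG1 and Flag arms.

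The peaks over ACTB fell into the same separate blocks in all 8 lists. The coding sequence of ACTB is split over several exons. The gene table used here gives no exon positions, so the blocks were not assigned to exons. The bases covered in every list formed 5 blocks, on chromosome 7 from 5527741 to 5527900, from 5528001 to 5528190, from 5528271 to 5528730, from 5529161 to 5529350 and from 5529531 to 5529660. Together they made up 1130 of the 3454 bp of the gene. Between and beyond them, 1703 bp were covered in no list. These comprised the lowest 573 bp of the gene, 180 bp between the third and the fourth block, 50 bp before the last block, and 900 bp from 5529691 to 5530590, next to the upper end. The remaining 621 bp were covered in some of the lists.

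**Figure D2:**
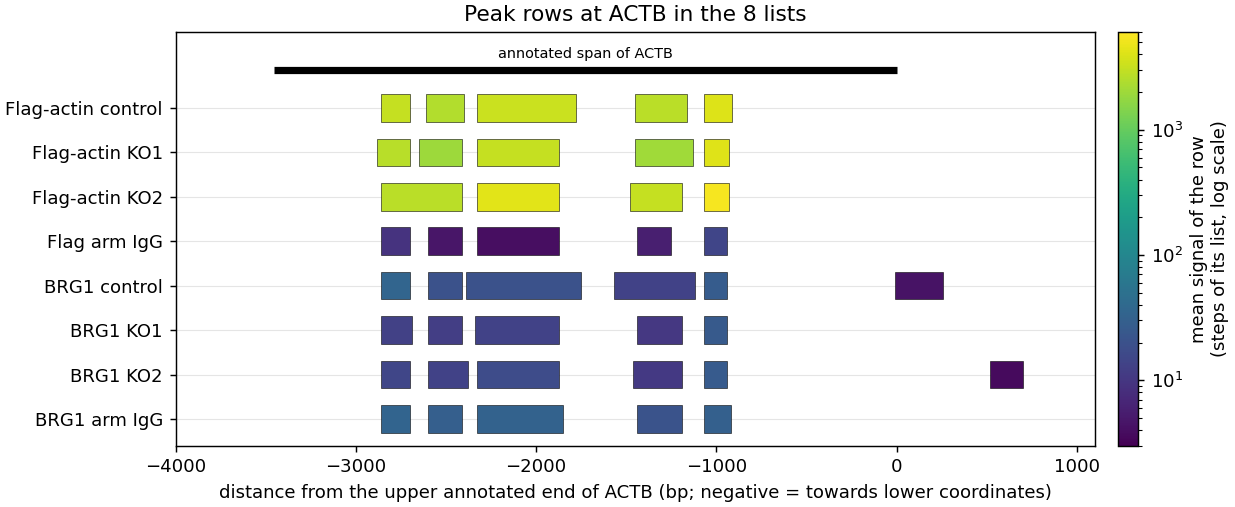
Peaks at ACTB in the 8 lists, by distance in bp from the upper annotated end of the gene. The colour gives the mean signal of each peak in steps of its list (log scale), and the black bar is the annotated span. The 5 blocks, covered in each list by definition, are far higher in the 3 Flag-actin lists than in the other 5. The peaks at and above the upper end belong to the BRG1 control and to BRG1 KO2.

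Block edges recurred between lists. The fifth block began at 5529531 in 8 of 8 lists. The first began within 10 bp of the median start in 7 lists, the third in 7, the second in 6 and the fourth in 6. Ends varied more, and within 10 bp of the median were 7 lists at the first block, 7 at the second, 5 at the third, 4 at the fourth and 6 at the fifth. In Flag-actin KO2 the first and second block were joined in 1 peak from 5527741 to 5528190. By the stricter rule that a control peak must have both edges within 20 bp of a peak in KO1 and of a peak in KO2, 1 of the 5 Flag-actin peaks passed, the fifth block, and 2 of the 6 BRG1 peaks.

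Averaged over the blocks, signal was 3104 steps (Flag-actin control), 2668 (KO1) and 3630 (KO2). It was 6.24 steps in the Flag arm IgG, 20.4, 13.8 and 15.6 in BRG1 control, KO1 and KO2, and 29.1 in the IgG list of that arm. In steps of their own lists, the 3 Flag-actin libraries thus stood far above all 5 others, without overlap, and the KO libraries lay on either side of the control. The size of a step differs between lists and the read depth is unknown, so these heights are not scaled between libraries. The highest maxima were at the fifth block in each Flag-actin list, with 6232, 7687 and 8802 steps. In the Flag arm IgG list the same block peaked at 22 steps and in the BRG1 arm IgG list at 59.

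Signal was divided among the blocks in similar proportions. The third block, the longest, held 42.6% of the block signal in the Flag-actin control, 39.5% in KO1, 40.5% in KO2, 41.0% in BRG1 control, 37.8% in BRG1 KO1, 40.4% in BRG1 KO2 and 42.2% in the BRG1 arm IgG list. The Flag arm IgG list was lower, with 25.7%, and the fifth block there held 26.1% against 10.7% to 19.6% in the other lists. The first and second block together held between 24.1% and 32.8%, and the fourth between 14.6% and 19.0%. Since the blocks are the bases covered in every list, each peak on a block overlaps an IgG peak of its own arm by definition. Among all peaks at ACTB, those that overlapped one were 5 of 5, 5 of 5 and 4 of 4 for Flag-actin control, KO1 and KO2. For BRG1 they were 5 of 6, 5 of 5 and 5 of 6. A list without peaks that overlap IgG therefore holds no Flag-actin peak at ACTB. Whether DNA of the tagged actin gene contributes to these blocks was not tested.

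BRG1 control cells had 1 peak at ACTB outside the blocks. It ran from 5530591 to 5530860 over the upper annotated end of the gene, where its transcription starts, with a maximum of 11 steps, at the 32.2 percentile of its list. No other list had a peak there. BRG1 KO1 had none outside the blocks, and BRG1 KO2 had 1 from 5531121 to 5531300, 520 bp beyond that end, with 9 steps. Neither of these BRG1 peaks overlapped an IgG peak.

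ACTG1, on the minus strand of chromosome 17 from 81509971 to 81512799, showed Flag-actin peaks inside the gene and BRG1 peaks outside it. The Flag-actin share was 0.00252% (control), 0.00316% (KO1) and 0.00274% (KO2), with no peak in either IgG list. These shares lie close together, and the KO mean of 0.00295% ± 0.000299 (SD, n = 2) exceeded the control by 0.000431 points. In the control the peaks ran from 81510591 to 81510890 and from 81511111 to 81511410. In KO1 they ran from 81510601 to 81510730, 81511021 to 81511080 and 81511311 to 81511400, and in KO2 from 81510691 to 81510730, 81511021 to 81511080 and 81511291 to 81511410. The highest point of the first peak began at 81510691 in all 3 lists, with 46, 71 and 90 steps. The peak from 81511021 to 81511080 had identical edges in KO1 and KO2 and no counterpart in the control. Flag-actin signal at ACTG1 was thus far lower than at ACTB. Peaks were 40 to 130 bp wide in the KO lists and 300 bp in the control, and the median width of all peaks was 220 bp (control), 50 (KO1) and 90 (KO2).

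Of the 53270 (control), 23784 (KO1) and 32038 (KO2) peaks in the BRG1 lists, those at ACTG1 numbered 5, 0 and 1, with 0 in IgG. In the control 3 of them lay beyond the 3′ end of the gene, between 81508991 and 81509950, the nearest 21 bp from it. The other 2 lay upstream of the start, from 81513311 to 81513690 and from 81513711 to 81514200, the second also within 1 kb of FSCN2, a fascin gene. The KO2 peak ran from 81513141 to 81513410, upstream as well, and overlapped the nearer of the control peaks. Heights were 8 to 20 steps in the control and 8 in KO2. By total signal the peaks lay between the 31.1 and the 71.0 percentile of their lists. The BRG1 share at ACTG1 was 0.00252% in the control, and 0.000219% ± 0.000310 (SD, n = 2) over the KO libraries. Loss from both KO lists, seen at 18.3% of all genes, was not met at ACTG1 because of the KO2 peak.

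**Figure D3:**
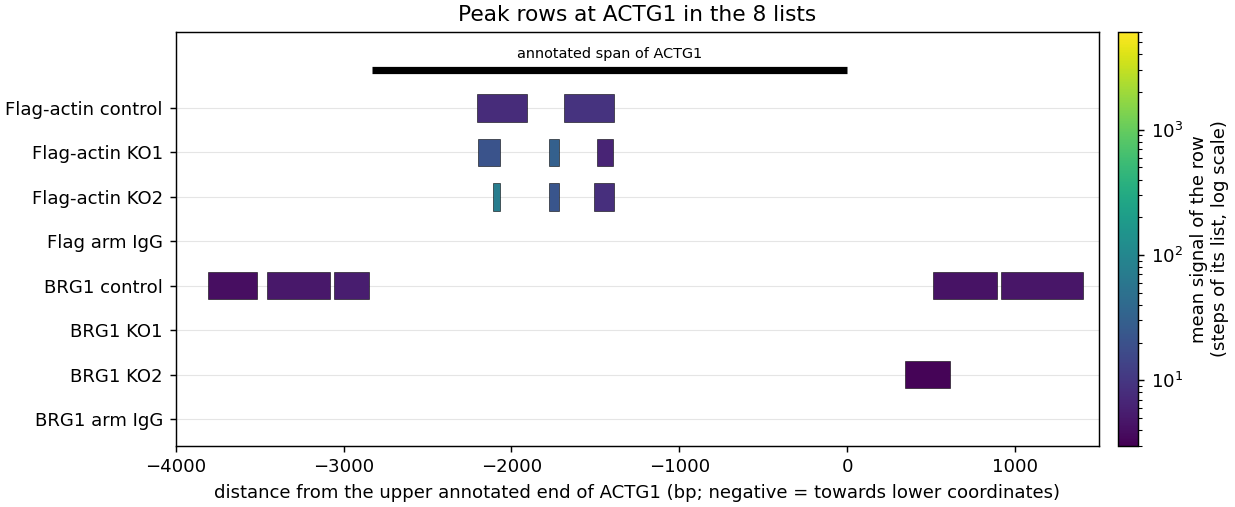
Peaks at ACTG1 in the 8 lists, by distance in bp from the upper annotated end, which is the start of this minus-strand gene. Colours give the mean signal in steps (log scale) and the black bar the annotated span. Flag-actin peaks lie inside the gene, BRG1 peaks on both sides of it, and the IgG lists have none.

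The muscle actin genes held few peaks, none above 37 steps. By total signal the Flag-actin peaks of ACTA1 lay between the 7.68 (KO1) and the 73.0 (KO2) percentile of their lists, and that of ACTG2 at 69.5. ACTA1, on chromosome 1 from 229431245 to 229434094, had Flag-actin peaks in all 3 lists and none in IgG, at 0.00104% (control), 0.00122% (KO1) and 0.00172% (KO2). The control peak ran from 229431551 to 229431650 with 37 steps and had its highest point from 229431581 to 229431600. A KO1 peak of 12 steps, from 229431551 to 229431620, lay at that place. KO1 also had a peak of 26 steps from 229431501 to 229431530, its highest at ACTA1. The KO2 peak, from 229431501 to 229431620, overlapped both, and its highest point of 32 steps lay from 229431511 to 229431520, outside the control peak. Another place, from 229432611 to 229432680 in KO1 and to 229432690 in KO2, had 11 and 27 steps and no control peak. ACTG2, on chromosome 2 from 73893008 to 73919865, had 1 Flag-actin peak, in the control, from 73914751 to 73914970 with 14 steps. It alone of the 10 had a Flag-actin peak in the control and in neither KO list, which held for 10.8% of all genes. The opposite, a peak in both KO lists and not in the control, held for 0 of the 10 and for 3.45% of all genes.

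BRG1 peaks at the muscle actins were single and low. ACTA2, on chromosome 10 from 88935074 to 88991337, had 1 in the control, from 88951691 to 88951800 with 11 steps, and none in KO1 or KO2. ACTA2 was the only one of the 10 genes with a BRG1 peak in the control and in neither KO list, against 18.3% of all genes. ACTA1 had 1 in KO2 alone, from 229433381 to 229433470 with 10 steps. ACTC1, on chromosome 15 from 34790230 to 34795549, also had 1 in KO2 alone, 30 bp wide with 20 steps, at the 5.72 percentile of its list. None of the 10 genes had BRG1 peaks in both KO lists without one in the control (0.853% of all genes). ACTA2 and ACTC1 had no Flag-actin peak and ACTG2 no BRG1 peak in any list.

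POTEE, POTEF and POTEI each had a high Flag-actin peak near the 3′ end in all 3 lists, and POTEJ had no peak in any of the 8. In POTEE (chromosome 2, 131209536 to 131265278, plus strand) it ran from 131263671 to 131264040 in the control, 1238 bp before the 3′ end. Its height was 900 steps (control), 879 (KO1) and 1077 (KO2). In POTEF (130073535 to 130129222, minus strand) it ran from 130074881 to 130075180, 1346 bp before the 3′ end, with 620, 738 and 983 steps. In POTEI (130459455 to 130509707, minus strand) it ran from 130463311 to 130463650, 3856 bp before the annotated 3′ end, with 443, 287 and 490 steps. These peaks ranked between the 95.1 and the 99.7 percentile of their lists. Heights of KO1 and KO2 lay on either side of the control in POTEE and POTEI and both above it in POTEF.

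The Flag-actin share was 0.0524% in the control and 0.0587% ± 0.00286 (SD, n = 2) over the KO libraries at POTEE, 0.0439% and 0.0612% ± 0.00453 at POTEF, and 0.0205% and 0.0206% ± 0.00317 at POTEI. The order of the Flag-actin shares was ACTB, then POTEE and POTEF, then POTEI, then ACTG1, and then ACTA1, which in the control was level with ACTG2 (0.00104% and 0.00106%). POTEE and POTEF changed places between control and KO, while the steps from ACTB to POTEE and from POTEI to ACTG1 were larger than the spread between KO1 and KO2. At the 3′ end of POTEF the BRG1 arm IgG list also had a peak, from 130074891 to 130075180, with 12 steps. No BRG1 list had a peak at these 3′ ends.

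**Figure D4:**
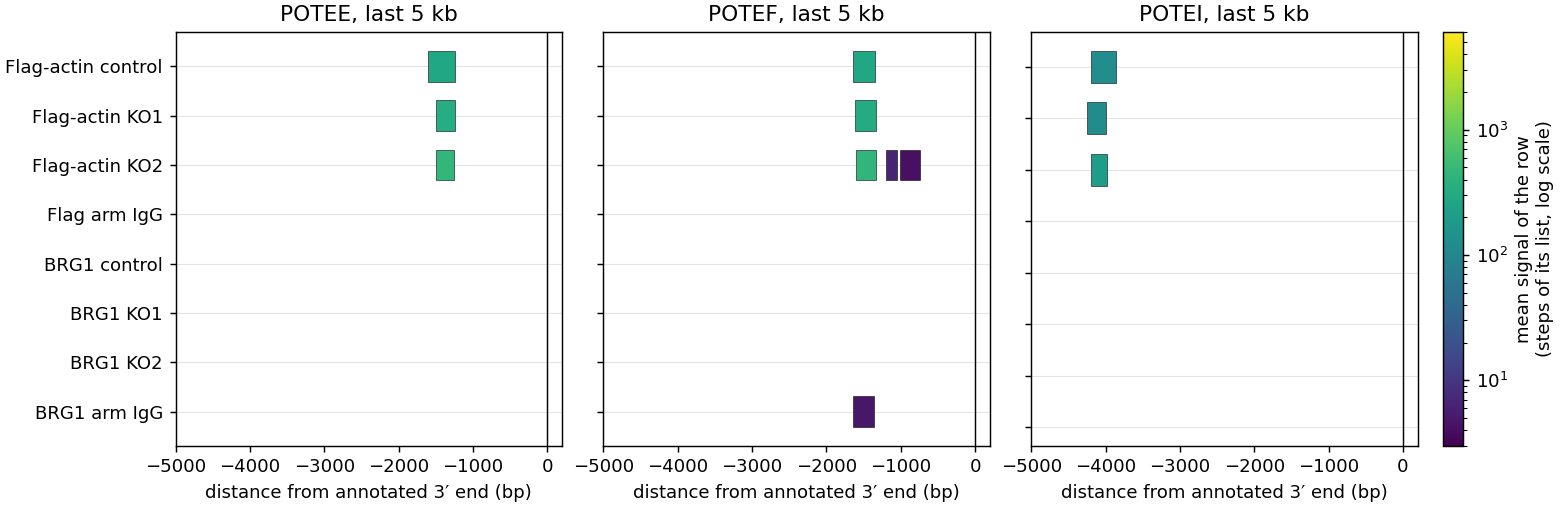
Peaks in the last 5 kb of POTEE, POTEF and POTEI in the 8 lists, by distance in bp from the annotated 3′ end. Colours give the mean signal in steps (log scale). The Flag-actin peaks recur at the same place in each gene, and the BRG1 arm IgG list has a low peak at that place in POTEF.

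In the BRG1 lists and the Flag arm IgG list, the peaks at POTEE and POTEF lay at another place in each gene. A peak of 30 bp in POTEE, from 131227341 to 131227370, was present in 7 of the 8 lists, all but the Flag-actin control, with 112 to 304 steps. A similar narrow peak of POTEF, from 130111551 to 130111580 in 6 of the lists, was present in all 8, with 40 to 354 steps. Other peaks of POTEF were in 1 list each, with 6 steps in the Flag-actin control, 12 and 9 in KO2, and 38 in the BRG1 arm IgG list. BRG1 shares at POTEE were 0.00284% in the control and 0.00428% ± 0.000714 (SD, n = 2) over the KO libraries, against 0.00282% in the IgG list, and every BRG1 peak there overlapped an IgG peak.

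Related genes served as a comparison. Of 9 other POTE genes, each Flag-actin list had a peak at 2, against 48.4%, 37.2% and 45.4% of all genes. The Flag arm IgG list also had a peak at 2 of the 9, against 30% of all genes. The summed Flag-actin share of the 9 was 0.00344%, 0.00331% and 0.00272%, against 0.00226% in IgG. POTEH was the one with Flag-actin peaks in all 3 lists, with heights of 6 to 27 steps. Flag-actin peaks numbered 0, 1 and 1 in POTEC and 1, 0 and 0 in POTED, and the remaining 6 had none. POTEA, POTEC, POTED and POTEH held peaks in some other lists. Of 36 actin pseudogenes in the gene table, 13 (control), 14 (KO1) and 12 (KO2) had a Flag-actin peak, 11 of them in all 3 lists, against 2 in the IgG list. Of all protein-coding genes, 48.4%, 37.2% and 45.4% had a peak in the Flag-actin lists, and 30% in the Flag arm IgG list. Spans were not matched between pseudogenes and genes, so these shares are not a like background for the pseudogene counts. The summed share of the 36 pseudogenes was 0.300%, 0.301% and 0.349%, against 0.00186% in IgG. In the BRG1 arm it was 0.00326%, 0.00155% and 0.00220%, against 0.00324% in IgG.

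The pseudogene with the highest share was ACTBP2, on chromosome 5 from 77784803 to 77786597, with Flag-actin shares of 0.185% (control), 0.184% (KO1) and 0.219% (KO2). It had 2 Flag-actin peaks in each list, from 77784881 to 77785160 and from 77785531 to 77785970 in the control, with 1868 and 1145 steps. Both places also had peaks in 3 lists of the BRG1 arm, those of control, KO2 and IgG, with 8 to 31 steps, and at the second place in BRG1 KO1, with 12. ACTBP11, on chromosome 1, had 0.0455%, 0.0446% and 0.0578%, and ACTG1P14, on chromosome 9, had 0.0433%, 0.0403% and 0.0396%, with no peak in the other 5 lists. The sources used here do not state how reads matching several of these copies were placed, so the split of signal among ACTB, ACTG1, the POTE genes and the pseudogenes is uncertain.

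**Figure D5:**
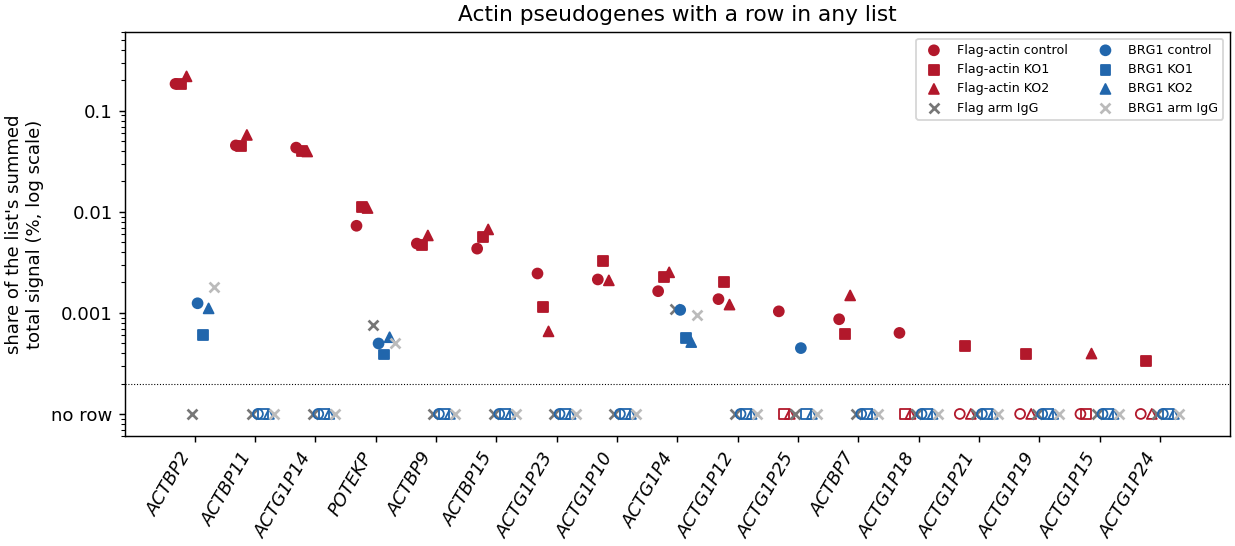
Share of the summed total signal of each list (percent, log scale) at the 17 actin pseudogenes with a peak in any list. Red, Flag-actin; blue, BRG1; grey, IgG. Marks below the dotted line have no peak. ACTBP2 is highest, near 0.2% in the Flag-actin lists, and is the one with IgG signal in the BRG1 arm alone.

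Actin-related proteins share the actin fold but are distant in sequence. None of their genes had a Flag-actin peak in all 3 lists without an IgG peak at the gene. The share of all genes that meet this rule was not computed, so it sets these genes apart from no others. Of 21 of them (ACTBL2, a gene close to ACTB, was placed in the same list), 7, 6 and 7 had a Flag-actin peak in control, KO1 and KO2, against 48.4%, 37.2% and 45.4% of all genes. ACTR3, ACTR3C and ACTL6A had one in all 3 lists, each with a peak in the Flag arm IgG list as well, and ACTBL2 had none in any list. The BRG1 lists had peaks at 11 (control), 8 (KO1) and 7 (KO2) of the 21, against 59.9%, 33.6% and 42.8% of all genes. ACTR1B, a dynactin subunit, ACTR2, a subunit of the Arp2/3 complex, and ACTR6 had one in the control and in neither KO list, 3 of 21 against 18.3% of all genes.

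Genes for the folding, processing and modification of actin had BRG1 peaks at 15 of 21 in the control list, at 5 in that of KO1 and at 10 in that of KO2, against 59.9%, 33.6% and 42.8% of all genes. In 7 of the 21 a BRG1 peak was present in the control and in neither KO list, against 18.3% of all genes. These were TCP1, CCT3, CCT7 and CCT8, subunits of the chaperonin that folds actin, PFDN4 and PFDN5, subunits of prefoldin, which hands actin to it, and NAA10, an N-terminal acetyltransferase. Their shares of the BRG1 control list were small, from 0.000352% (PFDN5) to 0.00119% (CCT8). That list was also the longest, with 53270 peaks against 23784 (KO1) and 32038 (KO2), and a loss of BRG1 at these genes was not tested. Flag-actin peaks were present at 4, 4 and 8 of the 21, against 48.4%, 37.2% and 45.4% of all genes. SETD3 had them in all 3 lists, with 2, 3 and 11 peaks against 8 in the IgG list.

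By the distance over the 8 libraries of log10(percent share + 0.0001), the protein-coding genes most like ACTB were ASCC1, CFAP91, PPP2R2B, PCDH17 and POTEF. Their distances ran from 2.52 to 2.94. ASCC1, the nearest, had 0.0742%, 0.0992% and 0.0985% in Flag-actin control, KO1 and KO2. Those most like ACTG1 were LOC400499, CIC, LGR6, ADCY7 and FBRSL1, at distances from 0.642 to 0.758. The libraries of one arm share an antibody, and the distance is a description only.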

How the data were processed

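CUT&RUN peak lists of 8 libraries were used as deposited. Per the submitters' processing notes the build was hg38, and the tools, listed without settings, were SEACR, MACS2, BWA, Trim Galore 0.4.5, bedtools 2.30.0, SAMtools, FastQC 0.12.0 and deepTools. The deposited signal values (total and maximum per peak) have the layout of SEACR, and the sources used here do not give their normalization. Groups came from the sample titles. The read depth is unknown, so no counting interval is given, and no test was made. Peaks off chromosomes 1 to 22, X and Y were left out. An overlap of 1 bp with a gene widened by 1 kb counted. Gene spans and promoters came from RefSeq tables of GRCh38.p14, which give no exons. Shares, heights in steps and overlaps were computed with Python 3.11.15, numpy 2.4.6 and pandas 2.3.3, and the overlap function was tested on simulated data against bedtools 2.31.1 (0 disagreements in 3000 windows). The genes and lists were chosen with earlier results of these data known. Named were the 10 genes, other POTE genes with a peak, the 3 pseudogenes highest in the Flag-actin control, genes of the actin-related and folding lists with Flag-actin peaks in all 3 lists or BRG1 peaks in the control alone, and the 5 nearest genes by signal share. ACTBL2, near in sequence to ACTB, was singled out after its values were seen.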

Additional observations from a re-analysis of the deposited data

Results flagged for a closer look

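In 2 of the 10 genes both KO libraries lay on one side of the control for Flag-actin and on the other side for BRG1. The share of all genes that do so was not computed, and the difference between the arms was not tested. At ACTB the BRG1 KO mean differed from the control by −0.00041 points, and most BRG1 peaks there overlapped an IgG peak. At ACTG1 the BRG1 peaks were few, and the BRG1 control list was longer than both KO lists. For ACTB the share of the summed signal was 2.14% in the Flag-actin control, 2.23% in KO1 and 2.53% in KO2, and 0.0103%, 0.00980% and 0.0101% in the BRG1 lists. For ACTG1 the Flag-actin lists held 2, 3 and 3 peaks and the BRG1 lists 5, 0 and 1. Its Flag-actin shares were 0.00252%, 0.00316% and 0.00274%. The BRG1 shares of ACTG1 were 0.00252%, 0% and 0.000438%. With maxima summed, the Flag-actin difference at ACTB had the opposite sign.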

How the results depend on the processing

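Of 55 values recomputed under another setting, 40 stayed within the SD of KO1 and KO2 or, for counts, within 1.5 times, 14 moved and 1 changed sign. Leaving out a KO library keeps the ACTB share within that SD by construction, so these values are no check of it. BRG1 counts of 3 and 6 against a KO mean of 4.5 also passed the rule for counts. With maxima summed in place of total signal, the Flag-actin share of ACTB was 0.524% in the control and 0.473% over the KO libraries, a difference of −0.0514 points in place of 0.244. Without peaks that overlap IgG it was 0% in the control and 0% in the KO lists, a difference of 0, because each ACTB peak overlaps an IgG peak. With peaks wider than 100 bp alone, a setting chosen after seeing the data, the shares were 5.23% and 19.2%, a difference of 13.9 points; the cause was not tested. Leaving out KO1 or KO2 gave a KO share between 2.23% and 2.53% and a difference between 0.0947 and 0.394 points. Genes with a BRG1 peak numbered 3 in the control and 2 in the KO mean without IgG sites, and 3 and 1.5 with wide peaks alone. With 1 KO library left out they numbered 3 to 6, and Flag-actin stayed at 6. ACTB peaks with the same edges in the 3 Flag-actin lists numbered 0 at 10 bp and 2 at 50 bp, against 1 at 20 bp. No paired analysis was possible because, within an arm, the groups compared share fewer than 2 replicate numbers. Each arm had a single control library, and its title carries no KO number. Pairing across arms was not used, since no test was made. The read depth is unknown, and the absence of a peak does not show absence of binding.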
